A study of Mus musculus with 18 samples.

Results

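Serpins are a family of proteins with a common fold, most of which trap a serine protease by offering it a bait loop, the reactive centre loop, and then changing shape while the protease is bound. Some members have lost this activity: Serpinh1 (HSP47) is a collagen chaperone of the endoplasmic reticulum, and Serpinf1 (PEDF) is a secreted glycoprotein that binds collagen and restrains vessel growth. Fibroblasts are known for secreting serpins that hold back proteases around the cell, while the Serpina1 genes, which encode alpha-1-antitrypsin, the inhibitor of neutrophil elastase, are used mainly by hepatocytes. The genes described here are 9 serpins of NIH 3T3 mouse fibroblasts, namely Serpina1a, Serpina1b, Serpina1c, Serpina3n, Serpinb6a, Serpine2, Serpinf1, Serping1 and Serpinh1. They were the rows of the normalized expression table with these symbols, 9 of 22019 genes and 9 of 60 rows whose symbol begins with Serpin. The set was chosen by the signal of the Serpina1 genes, which was low in SUN1L libraries, so the SUN1L levels below are a description, with no test.

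NIH 3T3 cells with a doxycycline-inducible system carried either SS-GFP-KDEL (hereafter KDEL, the control, enriched by cell sorting) or SS-HA-Sun1L-KDEL (hereafter SUN1L, the lumenal part of SUN1, which disconnects the nucleus from the cytoskeleton by competing for nesprins). All cells received doxycycline at 1 µg/ml and were kept for 48 hr on fibronectin-coated gels of 1 kPa (soft) or 308 kPa (stiff). There were 3 libraries each of KDEL on 1 kPa, KDEL on 308 kPa, SUN1L on 1 kPa, SUN1L on 308 kPa and KDEL on 308 kPa with Y27632 (25 µM, a ROCK inhibitor), and 2 of KDEL on 308 kPa with blebbistatin (10 µM, a myosin II inhibitor). Each construct was a separately transduced and selected line, so that an effect of SUN1L and a difference between the lines cannot be told apart, and whether a line is a clone was not given in the sources used here. In 1 further library on 308 kPa the labels conflict: 1 label calls it empty vector with Y27632 and another gives blebbistatin, and it is described alone as the empty vector library. The number over its column also differs from the number in its title, so its values were matched to it by the column's written heading alone. That heading too names an empty vector with Y27632. Every empty vector value below depends on that match.

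The signal of each library stood for an estimated 12670000 to 19460000 read pairs assigned to genes after the authors' filters. Sun1 checked the construct labels: its normalized signal was 38452 to 82617 in the 6 SUN1L libraries, 2785 to 3799 in the 11 KDEL libraries and 3656 in the empty vector library. All 10 fibroblast markers were present in every library. Genes of dividing cells were low in 3 libraries of the first run of serial numbers (SUN1L replicate 1 on each gel and KDEL replicate 1 on 308 kPa), where their mean log2 signal was 8.78 to 9.51, against 11.8 to 12.5 in the other 15. Values without these libraries are given beside several results below.

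The members fell into 3 levels. To compare genes, the mean signal over 18 libraries was divided by the kilobases of exon of each gene. On this scale Serpinf1 stood at 8407 per kb and Serpinh1 at 7702 per kb, above 98.9% and 98.8% of the 15617 tested genes with a known exon length. Serpinb6a, an intracellular serpin of clade B, followed at 1402 per kb, above 91.1% of genes. Serpina1a stood at 151 per kb, near the middle of the range (48.4% of genes lower), Serpina1c at 26.1 per kb and Serpina1b at 5.07 per kb. These Serpina1 means pool libraries of lines that differed. The Serpina1a signal was 386 to 826 in the 11 KDEL libraries and 65.3 to 121 in the 6 SUN1L libraries. Reads shared by these near-copies may also have been lost to the authors' filter on mapping quality, which was not tested. Serpina3n (an inhibitor of granzyme B and related proteases), Serping1 (the inhibitor of complement C1 proteases) and Serpine2 (protease nexin-1, an inhibitor of thrombin and urokinase) stood at 1.21, 1.07 and 0.33 per kb. These last 3 genes were at or close to the lowest deposited value of 1, so the data do not show them as serpins of these fibroblasts. All 9 members passed the filter on low values, which asks for a signal above 1 in at least 3 libraries.

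**Figure D1:**
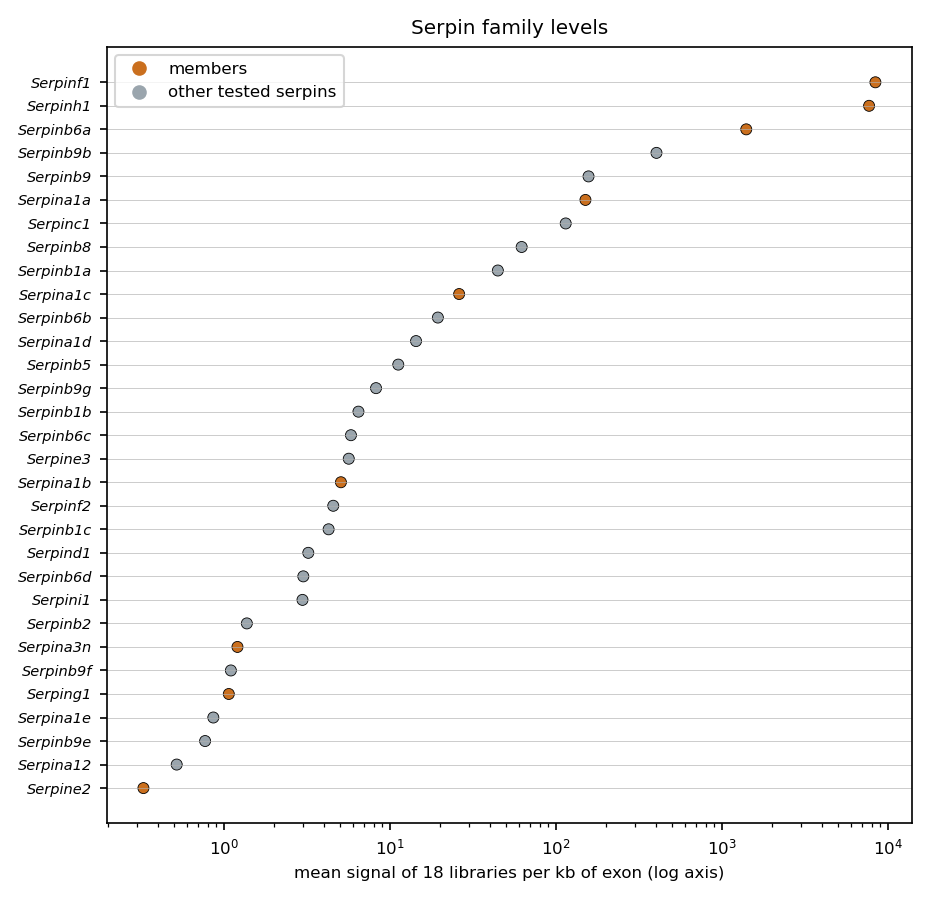
Mean normalized signal of 18 libraries per kilobase of exon (log axis) for the 9 members (orange) and 22 other serpins that passed the filter on low values (grey). Serpinf1 and Serpinh1 lead the family at 8407 and 7702 per kb, and Serpine2 is last at 0.33 per kb.

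The Serpina1 paralogs are near-copies, and their sequences decide how far their signals can be told apart. The coding sequences of Serpina1a, Serpina1b, Serpina1c, Serpina1d and Serpina1e are each 1242 bases long and differ at 86 positions in all. Serpina1a and Serpina1c are 98.47% identical, with 19 differing bases, and Serpina1a and Serpina1b are 97.02% identical. Of the 1193 stretches of 50 bases, the read length, in the Serpina1a coding sequence, 25.6% occur in no other of the 5 paralogs, against 25.4% for Serpina1c, 55.2% for Serpina1b and 48.9% for Serpina1d. The differences cluster toward the end of the coding sequence, where serpins encode the reactive centre loop. Untranslated exons and the pairing of reads were not counted in these shares. The 90 bases at coding positions 1103 to 1192, the window with most variable positions (20 of the 86), are shown for the 4 paralogs with signal. They come from the GENCODE vM1 transcripts and hold some of the letters by which a read can be assigned. Capitals mark the positions that vary among the 5 genes.
Serpina1a: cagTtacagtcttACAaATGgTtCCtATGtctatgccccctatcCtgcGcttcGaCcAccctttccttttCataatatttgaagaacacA
Serpina1b: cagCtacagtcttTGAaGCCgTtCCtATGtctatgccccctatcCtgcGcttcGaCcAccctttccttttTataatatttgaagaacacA
Serpina1c: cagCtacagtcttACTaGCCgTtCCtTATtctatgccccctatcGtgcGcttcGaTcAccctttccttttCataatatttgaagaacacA
Serpina1d: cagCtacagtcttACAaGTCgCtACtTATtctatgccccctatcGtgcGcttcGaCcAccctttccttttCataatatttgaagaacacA
In this window Serpina1b differs from Serpina1a at 7 bases, Serpina1d at 9 and Serpina1c at 10. The gene model of Serpina1b in the table (chr12:103728156-103830373, minus strand) also spans that of Serpina1d (chr12:103763594-103773592). The Serpina1 signals are therefore treated as sharing reads, each is uncertain on its own, and their sum is given beside them.

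Serpina1a (chr12:103853589-103863562, minus strand) was well detected in KDEL cells and low in SUN1L cells. The 3 KDEL libraries on 1 kPa held a signal of 430, 458 and 409, a mean of 432 ± 24.9 (SD, n = 3). On 308 kPa it was 386, 409 and 424 in KDEL cells, a mean of 406 ± 18.8 (SD, n = 3). In SUN1L cells it was 68.7, 121 and 78.0 on 1 kPa, a mean of 89.4 ± 28.2 (SD, n = 3), and 72.1, 99.4 and 65.3 on 308 kPa, a mean of 78.9 ± 18.1 (SD, n = 3). No SUN1L library reached a KDEL library, and the lowest of the 11 KDEL libraries was 3.18 times the highest of the 6 SUN1L libraries. On the log2(signal + 1) scale SUN1L lay below KDEL by -2.30 on 1 kPa and -2.37 on 308 kPa, both with an SE of 0.24. Fewer cells that use the gene and less RNA per cell cannot be told apart in such bulk libraries.

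Serpina1c (chr12:103894926-103904887, minus strand) showed the same split at a lower level. It was 50.1, 43.5 and 52.1 in KDEL cells on 1 kPa and 40.5, 35.1 and 50.7 on 308 kPa. In SUN1L cells it was 7.59, 11.2 and 6.74 on 1 kPa and 10.8, 11.8 and 10.0 on 308 kPa. The SUN1L values correspond to 3.25 to 6.55 read pairs, so their differences from each other lie within counting error. SUN1L lay below KDEL by -2.41 (1 kPa) and -1.85 (308 kPa) on the log2 scale, with an SE of 0.27 for both, and a pseudocount of 8 brought these to -1.78 and -1.40.

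Serpina1b (coordinates above) was at the limit of detection. It was 13.9, 7.52 and 10.2 in KDEL cells on 1 kPa and 7.21, 6.85 and 6.55 on 308 kPa, and 6.03, 3.58 and 4.06 in SUN1L cells on 1 kPa and 1.41, 1.00 and 1.00 on 308 kPa. A library needed a signal of 5.11 to 7.46 to hold 3 read pairs, and 8 of the 18 libraries held less than that for this gene, so no fold is given. Serpina1d, which is no member but lies within the same gene model, was 10.2 to 53.2 in KDEL libraries and 2.49 to 9.29 in SUN1L libraries.

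Summed over Serpina1a, Serpina1b and Serpina1c, KDEL cells held 491 ± 19.4 on 1 kPa and 455 ± 23.7 on 308 kPa, and SUN1L cells 102 ± 29.4 and 91.0 ± 18.9 (SD, n = 3 each). The log2 difference was -2.29 ± 0.23 (SE) on 1 kPa and -2.33 ± 0.17 (SE) on 308 kPa. Without the 3 libraries low in genes of dividing cells it was -2.15 and -2.32. All 3 SUN1L libraries lay below all 3 KDEL libraries of the same gel for Serpina1a and Serpina1c, as they did for 7.86% of all tested genes on 1 kPa and 2.33% on 308 kPa, and with the inhibitor libraries included all 11 KDEL libraries lay above all 6 SUN1L libraries for 0.393% of tested genes. Across all genes, 0.0874% were called for SUN1L on 1 kPa and 0.0624% on 308 kPa (limma, Benjamini-Hochberg adjusted p below 0.05 and at least 2-fold). Since these values chose the genes, nothing is read from those shares.

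The shares of the paralogs overlapped between the constructs. Serpina1a made up 83.1% to 86.6% of the Serpina1a to Serpina1d sum in the 11 KDEL libraries and 75.0% to 86.6% in the 6 SUN1L libraries. Serpina1c made up 7.32% to 10.8% and 7.34% to 11.8%. The ratio of Serpina1a to Serpina1c was 7.85 to 11.6 in KDEL and 6.51 to 11.6 in SUN1L libraries. With reads shared between the copies, these ratios do not show equal change of each gene.

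The empty vector library sat with the SUN1L libraries for the Serpina1 genes and with the KDEL libraries for Sun1. Its Serpina1a signal was 63.1, under the lowest SUN1L library at 65.3 and the lowest KDEL library at 386. Its Serpina1c signal was 1.78 and its Serpina1d signal 1.11, both under 1 read pair and below every other library, and its Serpina1b signal was at the lowest value of 1. Serpina1a made up 94.2% of its Serpina1 signal. The summed Serpina1a-c signal was 65.9, so the KDEL median of 494 was 7.50 times higher. Among the 63 tested genes with all KDEL above all SUN1L libraries, this library was below every KDEL library for 29 and at or above the lowest KDEL library for 34. With 1 library there is no replicate check.

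**Figure D2:**
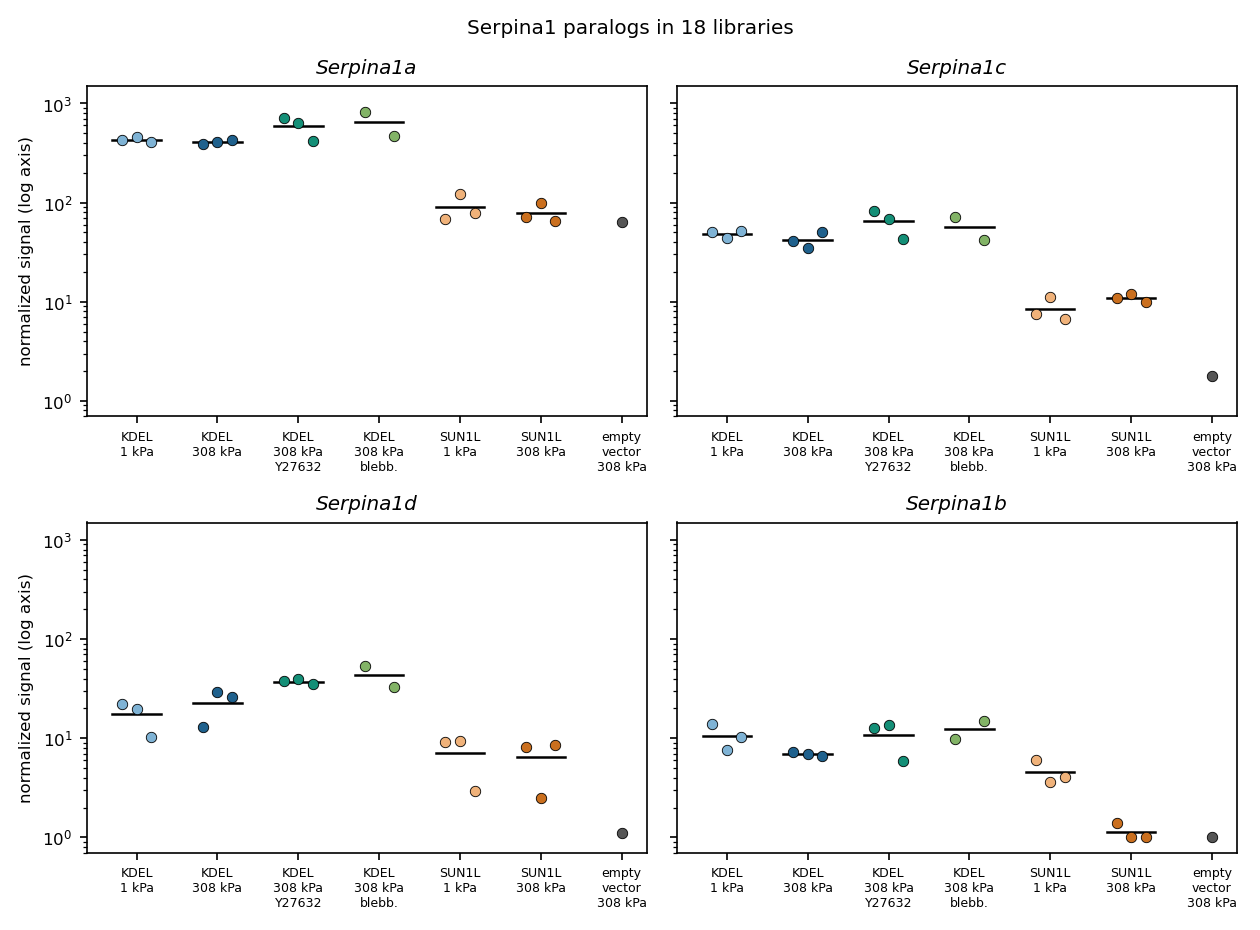
Normalized signal (log axis) of Serpina1a, Serpina1c, Serpina1d and Serpina1b in each of 18 libraries by group, with a bar at the group mean and 1 point for the empty vector library. The 11 KDEL libraries hold 386 to 826 of Serpina1a, the 6 SUN1L libraries 65.3 to 121 and the empty vector library 63.1.

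The promoters of the Serpina1 members are close copies as well, which is why they are shown together. Over the 250 bases before the RefSeq start site (GRCm38.p6), Serpina1a and Serpina1c are 93.2% identical, Serpina1a and Serpina1b 90%, and Serpina1b and Serpina1c 91.6%. The last 120 bases before the start site are given on the coding strand with the letters CCAAT, read on either strand, in capitals. They stand at chr12:103863620-103863739 for Serpina1a, chr12:103738190-103738309 for Serpina1b and chr12:103904951-103905070 for Serpina1c. The stretch of Serpina1b lies inside the gene model that was quantified, which begins at 103830373 on the minus strand. It is therefore not the start of that model.
Serpina1a: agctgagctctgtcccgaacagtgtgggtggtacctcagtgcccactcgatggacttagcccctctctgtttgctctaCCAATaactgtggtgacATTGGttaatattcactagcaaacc
Serpina1b: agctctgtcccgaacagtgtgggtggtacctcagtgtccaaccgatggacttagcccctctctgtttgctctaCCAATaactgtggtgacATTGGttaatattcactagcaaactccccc
Serpina1c: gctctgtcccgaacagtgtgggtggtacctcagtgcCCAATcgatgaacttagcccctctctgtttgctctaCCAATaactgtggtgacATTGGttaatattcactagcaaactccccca
CCAAT begins 42 and 25 bases before the start site in Serpina1a, 47 and 30 in Serpina1b, and 84, 48 and 31 in Serpina1c, and occurs in 33.8% of 32851 promoters when the 250 bases before the start site are searched. The letters are a description and no evidence of binding.

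Most of the hepatocyte markers examined were near the lowest value. Of 10 hepatocyte markers, 9 stayed under a signal of 10 in every library, with Alb (albumin) at 1 to 2.49, Apoa1 at 1 to 2.21 and Ttr at 1 throughout. The exception, Apob, was 10.2 to 141, and the summed list was 20.7 to 153 over all libraries. On chromosome 12 the 800 kb from Serpina10 to Serpina3n hold 23 genes of the table, 22 of them serpins. Only Serpina1a exceeded a signal of 100 there, only Serpina1a, Serpina1b, Serpina1c and Serpina1d exceeded 10, and the other 19 did not in any library.

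No difference with rigidity was detectable for Serpina1a or the summed signal. In KDEL cells the log2 fold change of Serpina1a on 308 kPa against 1 kPa was -0.09 (95% interval -0.63 to 0.45), and in SUN1L cells it was -0.16 (-0.70 to 0.38). Without the 3 libraries low in genes of dividing cells Serpina1a changed by -0.05 and -0.27. For the summed signal the difference was -0.11 ± 0.05 (SE) in KDEL cells (exact permutation p = 0.2, two-sided) and -0.15 ± 0.28 in SUN1L cells (exact permutation p = 0.6), where 3 against 3 libraries cannot give a p below 0.1. Over both constructs, with gels permuted within each construct, it was -0.13 (exact permutation p = 0.385, smallest possible 0.005). The interaction of rigidity and SUN1L was -0.07 for Serpina1a (95% interval -0.83 to 0.69, limma adjusted p = 1). Serpina1b had the smallest p of the members for rigidity, 0.000462 in SUN1L cells and 0.000562 over both constructs before adjustment and 1 after it (limma). Its libraries on 308 kPa lay below those on 1 kPa in KDEL cells, as for 2.65% of genes, and in SUN1L cells, as for 3.08%. The SUN1L values, 3.58 to 6.03 against 1.00 to 1.41, were all under 3 read pairs.

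No member was called for rigidity in KDEL cells, in SUN1L cells, over both constructs or in the interaction (limma, adjusted p below 0.05 and at least 2-fold), as was none of the 16021 tested genes (0%). At an unadjusted p below 0.05, 219 genes passed in KDEL cells (1.37%), 310 in SUN1L cells (1.93%), 467 over both constructs (2.91%) and 145 in the interaction (0.905%). The study itself reported genes with such an interaction, from an analysis of variance with another correction.

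With the myosin pathway inhibited, the Serpina1 genes were higher on average but spread widely. Serpina1a was 721, 628 and 413 with Y27632, a mean of 588 ± 158 (SD, n = 3), against 386, 409 and 424 without. It was 826 and 467 with blebbistatin. The Y27632 libraries overlapped the untreated ones, while both blebbistatin libraries lay above them, as for 7.2% of tested genes. The log2 fold change was 0.49 for Y27632 (95% interval -0.17 to 1.15, limma adjusted p = 0.854) and 0.61 for blebbistatin (-0.13 to 1.35, limma adjusted p = 1), and without KDEL replicate 1 on 308 kPa 0.46 and 0.58. Serpina1c was 82.9, 68.3 and 43.3 with Y27632 and 71.9 and 41.5 with blebbistatin, and both groups overlapped the untreated libraries. Listed by library number, both genes fell along each inhibitor group, while untreated Serpina1a rose slightly. The part of the runs of library numbers in this spread was not tested. The summed signal differed by 0.50 ± 0.25 (SE) for Y27632 (exact permutation p = 0.2) and by 0.60 ± 0.30 (SE) for blebbistatin (exact permutation p = 0.1, the smallest that 2 against 3 libraries allow). If the empty vector library is counted as 1 more blebbistatin library, as 1 of its labels says, the blebbistatin difference turns to -0.52. That library is labelled empty vector and not KDEL, so this value mixes line and inhibitor. Counting it as a Y27632 library was not tried.

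Serpinh1 (chr7:99345375-99353230, minus strand) is the collagen-specific chaperone, and it was the member with the lowest unadjusted p for both inhibitors. Its signal was 16017, 14765 and 17446 in untreated KDEL cells on 308 kPa, a mean of 16076 ± 1341 (SD, n = 3). With Y27632 it was 22820, 30557 and 20608, a mean of 24661 ± 5224 (SD, n = 3). With blebbistatin it was 22076 and 22245. Every inhibitor library lay above every untreated one, which holds for 4.95% of tested genes with Y27632 and 7.2% with blebbistatin. The log2 fold change was 0.60 ± 0.17 (SE) for Y27632 (95% interval 0.20 to 1.00) and 0.47 ± 0.19 (SE) for blebbistatin (0.02 to 0.91). Neither passed the test across all genes (limma unadjusted p = 0.00935 and 0.0421, adjusted p = 0.793 and 1), and the comparisons share the untreated libraries. Without KDEL replicate 1 on 308 kPa, which was low in genes of dividing cells, the values were again 0.60 and 0.47, with unadjusted limma p of 0.0242 and 0.0748.

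In the other groups Serpinh1 was 21451, 19491 and 17215 in KDEL cells on 1 kPa, 15355, 15086 and 18742 in SUN1L cells on 1 kPa, and 12155, 13766 and 17894 in SUN1L cells on 308 kPa. These ranges overlap. The rigidity change was -0.27 in KDEL cells (95% interval -0.64 to 0.11, limma adjusted p = 1) and -0.18 in SUN1L cells (-0.55 to 0.20, adjusted p = 1), and SUN1L lay below KDEL by -0.24 on 1 kPa and -0.15 on 308 kPa. The last of these was -0.03 without SUN1L replicate 1 on 308 kPa and -0.31 without SUN1L replicate 3. The empty vector library stood at 19885, between the untreated and the inhibitor libraries.

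Serpinh1 clients and folding partners were described from a list of 18 symbols, of which 17 were in the table and tested. The list also names Hsf1, a transcription factor, and gives the same gene as Lepre1 and P3h1. With Y27632, 16 of the 17 lay above untreated cells and 8 had an unadjusted p below 0.05, all 8 higher, with a median log2 fold change of 0.40 against 0.01 over all tested genes. With blebbistatin 16 of 17 lay above, 1 with an unadjusted p below 0.05, and the median was 0.25. None was called, and over all genes 929 (5.8%) passed that unadjusted p with Y27632 and 487 (3.04%) with blebbistatin. Col1a1, a chain of type I collagen, was 49147, 44811 and 83218 without inhibitor and 100930, 118120 and 117550 with Y27632, a log2 fold change of 0.98 ± 0.29 (SE, limma adjusted p = 0.793). Col1a2, the other chain, changed by 0.84 ± 0.28 (SE, adjusted p = 0.803). Without KDEL replicate 1 on 308 kPa both changed by 0.87, and 14 of the 17 lay higher with Y27632, with a median of 0.31. Of the 17, 7 then had an unadjusted p below 0.05 with Y27632, against 7% of all tested genes. With blebbistatin 11 then lay higher and the median was 0.10. For rigidity over both constructs 15 of the 17 lay lower on 308 kPa, 2 with an unadjusted p below 0.05 against 2.91% of all genes, and the median was -0.17 against -0.015 over all genes. Without the 3 libraries low in genes of dividing cells 13 lay lower and the median was -0.08. In that fit 4 had an unadjusted p below 0.05, against 3.99% of all tested genes.

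**Figure D3:**
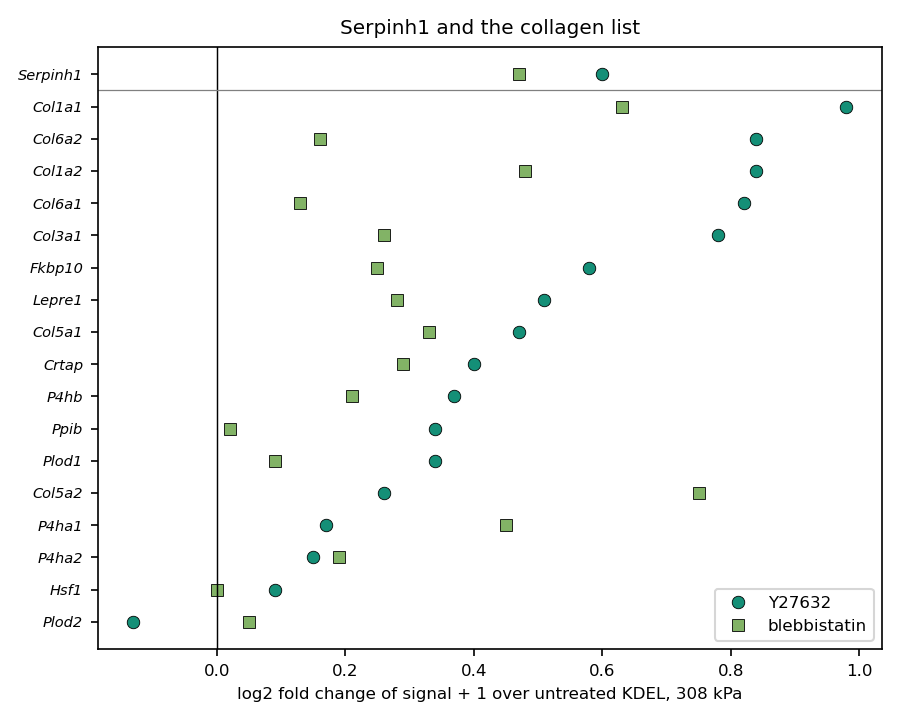
Log2 fold change of signal + 1 against untreated KDEL cells on 308 kPa for Serpinh1 and 17 genes of the list of collagen clients and folding partners, with Y27632 as circles and blebbistatin as squares. With Y27632, 16 of the 17 list genes lie above 0, and none passed the test across all genes.

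Summed marker lists also differed with Y27632. The fibroblast list, which shares its collagen genes with the list above, was 731730 to 896060 with Y27632, 688700 and 815370 with blebbistatin and 571270 to 726540 without. The summed endothelial list was 1065 to 3979 with Y27632, 639 and 1539 with blebbistatin and 371 to 724 without. Tek carried this sum (779 to 3928 against 125 to 682), while Pecam1 (16.1 to 67.3 against 10.8 to 47.2) and Cdh5 (33.4 to 234 against 30.3 to 204) overlapped and Kdr stayed at 4.44 or less. The summed epithelial list was 373 to 1171 with Y27632, 249.6 and 280.5 with blebbistatin and 248 to 348 without. With Y27632 against untreated cells, Krt14 reached the highest value of that list (74.4 to 872 against 32.04 to 149). Cdh1 overlapped (206 to 293 against 88.0 to 311). Krt5, Krt8 and Cldn4 stayed at 19.7 or less, with Epcam and Krt18 at the lowest value of 1 in all these libraries. Their part in the Serpinh1 and collagen values was not tested.

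Serpinf1 (chr11:75409769-75422701, minus strand), the most abundant member per kb, showed no detectable difference. It ranged from 16294 to 27540 in the 11 KDEL libraries, from 17585 to 22148 in the 6 SUN1L libraries, and was 14747 in the empty vector library, the lowest of all. The group means were 19175 ± 2049 in KDEL cells on 1 kPa, 21753 ± 5630 in KDEL cells on 308 kPa, 20321 ± 2414 in SUN1L cells on 1 kPa and 19534 ± 1991 in SUN1L cells on 308 kPa (SD, n = 3 each). The highest value, 27540, was that of KDEL replicate 1 on 308 kPa, the library low in genes of dividing cells. The log2 fold change for rigidity was 0.15 in KDEL (95% interval -0.28 to 0.59, and -0.03 without that library) and -0.05 in SUN1L cells (-0.49 to 0.38). For Y27632 it was -0.07 (-0.66 to 0.52) and for blebbistatin -0.17 (-0.83 to 0.49), with limma adjusted p of 0.971 and 1, and without that library these were 0.12 and 0.02. A change of 2-fold in either direction lay outside all 4 intervals.

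Serpinb6a (chr13:33917918-34002794, minus strand), known to inhibit trypsin-like proteases inside cells, was ordered by the run of library numbers. Its signal was 4785 to 6718 in libraries numbered 3 to 12, 6873 to 9127 in those numbered 15 to 24 and 7540 to 10540 in those numbered 27 to 36. In all 5 groups of 3 libraries the lowest value came from the first of these runs and the highest from the last. The labels do not say what a run of numbers stands for. The log2 fold change was 0.17 for rigidity in each construct (95% interval -0.43 to 0.77), 0.12 for Y27632 (-0.43 to 0.66) and -0.28 for blebbistatin (-0.88 to 0.33, limma adjusted p = 1). With the run as a block the values were 0.17 over both constructs, 0.12 and -0.12 (adjusted p = 0.528, 0.66 and 0.787). SUN1L lay at -0.15 from KDEL on both gels, a sign that 1 library could turn: leaving out each in turn gave -0.31 to 0.06 on 1 kPa (0.06 without SUN1L replicate 1) and -0.35 to 0.08 on 308 kPa (0.08 without SUN1L replicate 1).

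**Figure D4:**
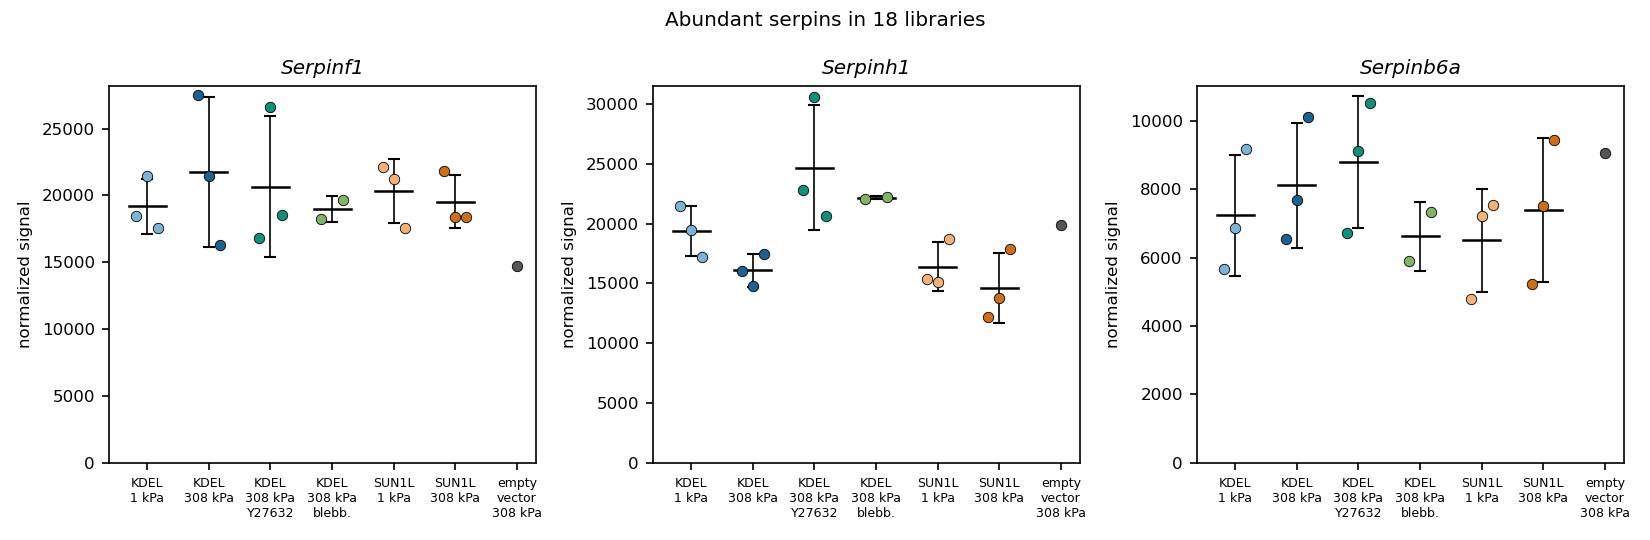
Normalized signal of Serpinf1, Serpinh1 and Serpinb6a in each library by group (axes start at 0), with group means and SD bars and 1 point for the empty vector library. For Serpinh1 the inhibitor libraries, at 20608 to 30557, lie above the untreated KDEL libraries on 308 kPa, at 14765 to 17446.

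**Figure D5:**
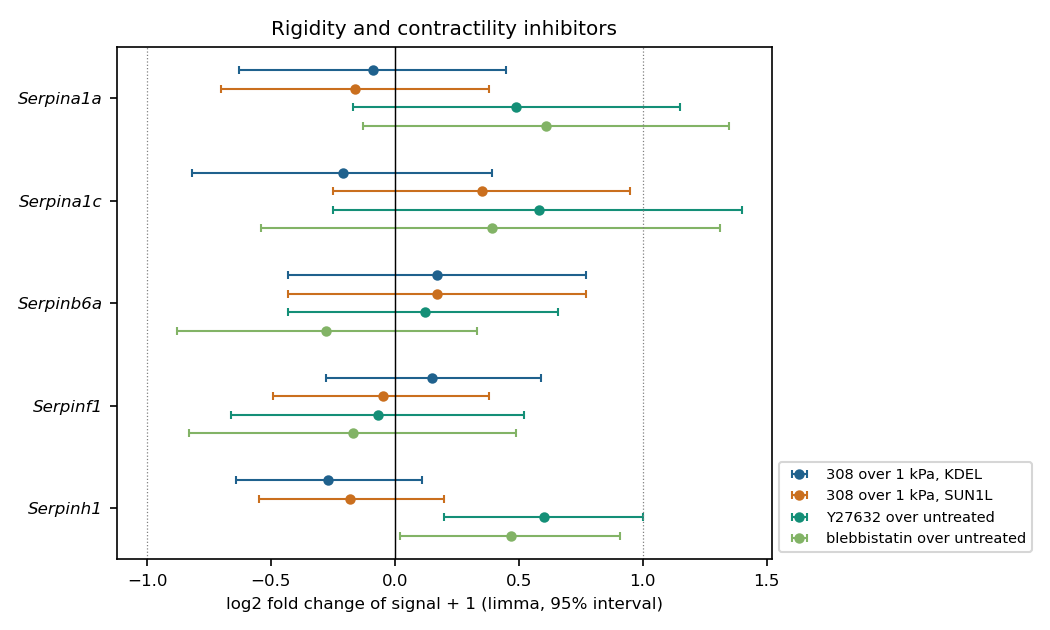
Log2 fold change of signal + 1 with 95% interval (limma) of 5 members for stiff over soft gel in KDEL and in SUN1L cells and for each inhibitor over untreated KDEL cells; dotted lines mark 2-fold. Only the 2 inhibitor intervals of Serpinh1 exclude 0 before adjustment, and none passed adjustment across all genes.

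The 3 members near the lowest value gave no comparison. Serpina3n was above 1 in 8 of 18 libraries and reached 9.34 in SUN1L replicate 1 on 1 kPa, a value of 4 read pairs. Serping1 was above 1 in 11 libraries with a highest value of 6.45, with Y27632. Serpine2 was above 1 in 5 libraries and reached 2.33. They held at least 3 read pairs in 3, 2 and 0 of the 18 libraries, so that differences between groups were not detectable at this depth.

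Of the other 51 serpin rows, 23 were tested and 19 stayed at the lowest value in every library. Serpinb9b, a clade B serpin, was 88.4 to 3376 over the libraries and at 88.4, 177 and 200 in the 3 libraries low in genes of dividing cells. Serpinb9, the granzyme B inhibitor, was picked out after its values were seen: all 11 KDEL libraries (478 to 931) lay above the 6 SUN1L libraries (218 to 463), as for 0.393% of tested genes, and the empty vector library was at 443. None of the 23 was called in any of the 8 contrasts.

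The proteases and receptors that serpins act with were described from lists of 21 and 15 genes, of which 17 and 14 were tested. Prss23, a secreted serine protease and the most abundant of the protease list, was 11237, 10554 and 14906 in untreated KDEL cells on 308 kPa and 18018, 29688 and 21836 with Y27632, groups that do not overlap, as for 4.95% of tested genes. Its log2 fold change was 0.91 ± 0.22 (SE, limma adjusted p = 0.793), and with blebbistatin 0.74 ± 0.24 (SE, adjusted p = 1), or 0.86 and 0.69 without KDEL replicate 1 on 308 kPa. Furin, the next, changed by -0.34 ± 0.10 (SE, limma unadjusted p = 0.00653, adjusted p = 1) on 308 kPa over both constructs, or -0.28 (unadjusted p = 0.0227) without the 3 libraries. With Y27632, 10 of the 17 proteases lay higher and 6 lower with a median of 0.02, and 8 of the 14 receptors higher with a median of 0.12, which was 0.03 without KDEL replicate 1 on 308 kPa. Lrp1, the receptor that clears serpin and protease complexes, and Rpsa, the laminin receptor, led their list at mean signals of 41427 and 62744, and changed by 0.21 ± 0.19 and 0.07 ± 0.22 (SE) with Y27632. No gene of these lists was called in any contrast.

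Among 15 acute-phase genes and regulators known to act on liver serpins, 12 were tested and none was called. Il6st, the shared receptor chain of the interleukin-6 family, and Stat3, the factor it activates, had the highest means, 10774 and 3337. With Y27632 5 of the 12 lay higher and 7 lower, with a median of -0.14, which turned to 0.14 without KDEL replicate 1 on 308 kPa.

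Genes with a pattern like that of a member were ranked by Pearson's r of log2(signal + 1) over the 18 libraries among 8010 genes, as a description. The libraries share groups and runs, so such likeness carries those differences. For the summed Serpina1a-c signal the nearest were Cxcl12 (r = 0.903), a chemokine, Hsdl2 (0.890) and Hoxa5 (0.886). Cxcl12 was 243 in the empty vector library, 140 to 362 in SUN1L and 461 to 1503 in KDEL libraries. For Serpinh1 they were Sorbs3 (0.969), Vimp (0.939) and Chst7 (0.927), for Serpinb6a Rmnd1 (0.930), Praf2 (0.924) and Gsto1 (0.916), and for Serpinf1 Ahnak2 (0.881), Slc38a7 (0.834) and Pkd2l2 (0.815).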

How the data were processed

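Polyadenylated RNA of 18 libraries was sequenced as 50-base paired-end reads. The authors aligned them with TopHat2 (2.0), naming mouse build mm9, filtered them by base quality, mapping and duplicates and quantified genes in AvadisNGS with TMM scaling; FastQC and SAMtools are also named in the submitters' processing notes. They deposited linear normalized signal values with a lowest value of 1. The positions in the table, printed here, fall on GRCm38, as do the RefSeq promoters (GRCm38.p6), which were present for 8 of the 9 members (all but Serping1). Exon lengths and coding sequences come from GENCODE vM1, matched by Ensembl identifier.

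Most signal values were not whole multiples of a read pair, so no count test was used. Depth was estimated from the signal of 1 read pair, the commonest value between 1 and 3 in each library (1.70 to 2.49). limma (3.58.1, R 4.3.3) was fitted with a mean-variance trend to log2(signal + 1) of genes above 1 in at least 3 libraries (16021 of 22019), over the 12 KDEL and SUN1L libraries and, separately, the 8 libraries of the inhibitor comparison. For fold changes of at least 2 the study used a z-score test. For the interaction of rigidity and SUN1L it used an analysis of variance and reported interacting genes after Bonferroni correction. Here genes were called at a Benjamini-Hochberg adjusted p below 0.05 and at least 2-fold. Fold changes of low genes are understated on this scale. The fit was tested on simulated data in which libraries varied independently. Libraries of the same run of numbers did not, so that test does not cover this dependence. The summed signal was tested by two-sided exact permutation. The p-values rest on the spread between these libraries within groups. Neither the main fit nor the permutation takes the runs of library numbers into account.

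Members and lists were chosen with earlier results of these data known. Named genes are the members, other serpins above the median mean signal (590.3), the 2 most abundant genes of each partner list, and the 3 most similar genes. Some genes that this rule names are not reported here. The labels number no replicates; they are numbered here by library number. Deviations from the group means correlated at 0.16 to 0.80 between libraries of the same run of numbers (median 0.52) and at -0.74 to 0.22 otherwise, so a fit with the run as a block was an alternative. Summarized values used Python 3.11.15.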

Additional observations from a re-analysis of the deposited data

How the results depend on the processing

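Alternatives were pseudocounts of 8 and 0.1, no filter, a mean signal of at least 10, quantile normalization, all 17 grouped libraries in 1 fit, the replicate block by run of library numbers, the empty vector library as 1 more blebbistatin library and each library left out. Leaving out the 3 libraries low in genes of dividing cells was added after seeing the data, for the partner lists too. None of Serpina1a, Serpina1c, Serpinb6a, Serpinf1 and Serpinh1 was called for rigidity over both constructs or an inhibitor in any of them (limma, smallest adjusted p 0.269). With the replicate block 17 genes were called for SUN1L on 1 kPa and 12 on 308 kPa, against 14 and 10, and 0 in the rigidity, interaction and inhibitor comparisons, as without it.

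For SUN1L, the single fit called 22 and 16 genes, and without the 3 libraries 7 and 5. Leaving out 1 library gave 8 (without KDEL replicate 1 on 1 kPa) to 15 on 1 kPa and 9 to 10 on 308 kPa. Without the 3 libraries 1 gene was called for rigidity in SUN1L cells, 1 over both constructs, 1 in the interaction and 3 with Y27632; leaving out 1 library gave 0 to 3 with Y27632 (3 without KDEL replicate 1 on 308 kPa) and 0 elsewhere.

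The low SUN1L signal chose the Serpina1 genes, so the ranges for SUN1L are a description only. The summed Serpina1a-c difference ranged from -2.51 to -2.15 for SUN1L on 1 kPa and -2.49 to -2.21 on 308 kPa when 1 library was left out. For rigidity in SUN1L cells it ranged from -0.31 to 0.07 (0.07 without SUN1L replicate 2 on 1 kPa), for Y27632 from 0.33 to 0.74 (0.33 without Y27632 replicate 1) and for blebbistatin from 0.20 (without blebbistatin replicate 1) to 0.99 (without blebbistatin replicate 2). Adding the empty vector library turned the blebbistatin difference to -0.52 for the sum, -0.48 for Serpina1a and -1.06 for Serpina1c, by its own low values. Signs also turned among small values. Without the 3 libraries these were -0.03 for Serpinb6a with Y27632, and for Serpinf1 -0.05 for rigidity, 0.12 with Y27632 and 0.02 with blebbistatin. Leaving out 1 library gave ranges of 0.00 to 0.16 for Serpina1c with rigidity, 0.00 to 0.77 for Serpina1c with blebbistatin, -0.03 to 0.30 for Serpinb6a with Y27632, and for Serpinf1 -0.04 to 0.15 for rigidity, -0.27 to 0.12 with Y27632 and -0.36 to 0.02 with blebbistatin. The cause was not tested. Depth limits Serpina1b, Serpina3n, Serpine2 and Serping1, which rest on few read pairs.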
